A study of Mus musculus with 7 samples.

Results

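The genes that mark blood and lymphatic endothelium were followed in the dorsal skin of aged mice after topical ABT-263. They are 36 genes chosen by name as endothelial identity genes, with the VEGF receptors left out, of 55450 genes in the count table. They fall into 19 pan-endothelial, 3 tip or angiogenic, 5 venous or venular, 4 capillary and 5 lymphatic genes. Of these, 35 passed the filter on low counts and were tested among 17959 genes, and Ccl21a had no count in any mouse.

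All 7 mice were wild-type C57BL/6 males aged 24 months whose dorsal hair was clipped and removed with a depilatory lotion. The 4 control mice (numbers 480, 481, 482 and 483) received the vehicle DMSO alone, and the 3 treated mice (numbers 476, 477 and 478) received 5 μM ABT-263, an inhibitor of anti-apoptotic Bcl-2 family proteins used as a senolytic, under a semi-occlusive dressing for 5 days. Whole skin was taken at the end of treatment and sequenced in bulk, with 1 library per mouse, so a difference in the number of endothelial cells (more or fewer) and one in RNA per endothelial cell (more or less) cannot be told apart. Between 20344364 and 26824123 reads were counted per DMSO mouse and between 27325963 and 43562330 per ABT-263 mouse, so the treated libraries were all the larger ones. Levels are given in CPM (counts scaled to library size, with TMM normalization), in the order of mice 480, 481, 482 and 483 for DMSO and 476, 477 and 478 for ABT-263. Differences are log2 fold changes of ABT-263 over DMSO ± standard error, with adjusted p-values from edgeR's quasi-likelihood test over all genes tested. Genes with an adjusted p-value under 0.05 are called higher or lower.

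Endothelial cells line every blood vessel and lymphatic vessel. They hold to each other through VE-cadherin, PECAM-1 and claudin-5, and their identity is kept by transcription factors of the ETS and SoxF families. Through the receptor TIE2 they read angiopoietins: angiopoietin-1 from mural cells keeps vessels quiet, while angiopoietin-2, stored and released by the endothelium itself, opens them to sprouting and inflammation. Venules are the site where leukocytes leave the blood in the skin, sprouts are led by tip cells, and lymphatic endothelium depends on PROX1.

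The bases before the transcription start are shown for 4 of these genes to show the letters AGGAAG, which hold the GGAA core read by ETS factors such as ERG. They were picked after the results were known, as 2 genes that were higher after ABT-263 (Eng and Emcn) and 2 that did not pass the threshold (Robo4 and Cldn5). The sequences are from RefSeq on GRCm38.p6, 250 bases that end just before the start, 5′ to 3′ on the plus strand, and capitals mark AGGAAG or its reverse complement CTTCCT. They lie at chr2:32646345-32646594 for Eng, chr3:137340828-137341077 for Emcn, chr9:37401722-37401971 for Robo4 and chr16:18776597-18776846 for Cldn5.
Eng: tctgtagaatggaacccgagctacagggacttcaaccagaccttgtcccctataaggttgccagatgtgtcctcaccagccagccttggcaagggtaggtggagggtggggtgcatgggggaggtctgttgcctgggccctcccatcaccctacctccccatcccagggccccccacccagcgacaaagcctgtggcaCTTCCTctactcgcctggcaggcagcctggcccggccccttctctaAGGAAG
Emcn: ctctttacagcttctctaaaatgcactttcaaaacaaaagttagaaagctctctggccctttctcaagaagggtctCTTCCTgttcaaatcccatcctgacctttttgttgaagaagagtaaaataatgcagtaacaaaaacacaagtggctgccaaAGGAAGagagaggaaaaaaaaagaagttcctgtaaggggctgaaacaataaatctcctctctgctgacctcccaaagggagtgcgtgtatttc
Robo4: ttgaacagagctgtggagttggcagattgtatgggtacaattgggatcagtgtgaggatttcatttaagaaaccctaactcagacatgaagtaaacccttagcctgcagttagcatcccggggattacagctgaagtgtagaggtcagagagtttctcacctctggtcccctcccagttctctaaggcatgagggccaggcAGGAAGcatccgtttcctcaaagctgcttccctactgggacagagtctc
Cldn5: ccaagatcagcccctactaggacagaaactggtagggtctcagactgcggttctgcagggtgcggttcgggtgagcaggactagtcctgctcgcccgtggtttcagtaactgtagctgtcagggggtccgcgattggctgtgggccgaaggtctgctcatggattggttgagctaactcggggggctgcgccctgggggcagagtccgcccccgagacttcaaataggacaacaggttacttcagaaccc
The letters begin at positions -52 and -6 from the start in Eng, at -174 and -93 in Emcn and at -49 in Robo4, and they do not occur in the Cldn5 window. RefSeq windows were matched for 19 of the 36 genes, and 12 of their 24 windows (50%) held the motif on either strand, against 29.5% of all 32851 windows. Among the matched genes the motif was found in 6 of 10 windows of genes that were higher and in 6 of 14 windows of the others. A match is a run of letters and was not tested as a binding site.

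After ABT-263, 17 of the 35 endothelial genes tested were higher and 0 were lower (edgeR adjusted p-value under 0.05). The higher genes made up 48.6% of those tested, where 12.4% of all genes tested were higher, 11.7% were lower and 24.2% passed in either direction. At an unadjusted p-value under 0.05, 25 were higher and 0 lower, where 20.6% of all genes tested were higher and 19.5% lower. The DESeq2 Wald test called 21 higher and 0 lower, where it called 13.9% of the genes it tested higher and 12.6% lower. The median log2 fold change of the endothelial genes was 0.95, beside 0.00223 over all genes tested, and 32 of them lay above 0. Every ABT-263 mouse was above every DMSO mouse in 20 of the 35, against 18.7% of all genes tested, and in no gene was every ABT-263 mouse below, which was the case in 18.4% of all genes tested. Of the 17 higher genes, 15 were changed more than 2-fold.

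**Figure D1:**
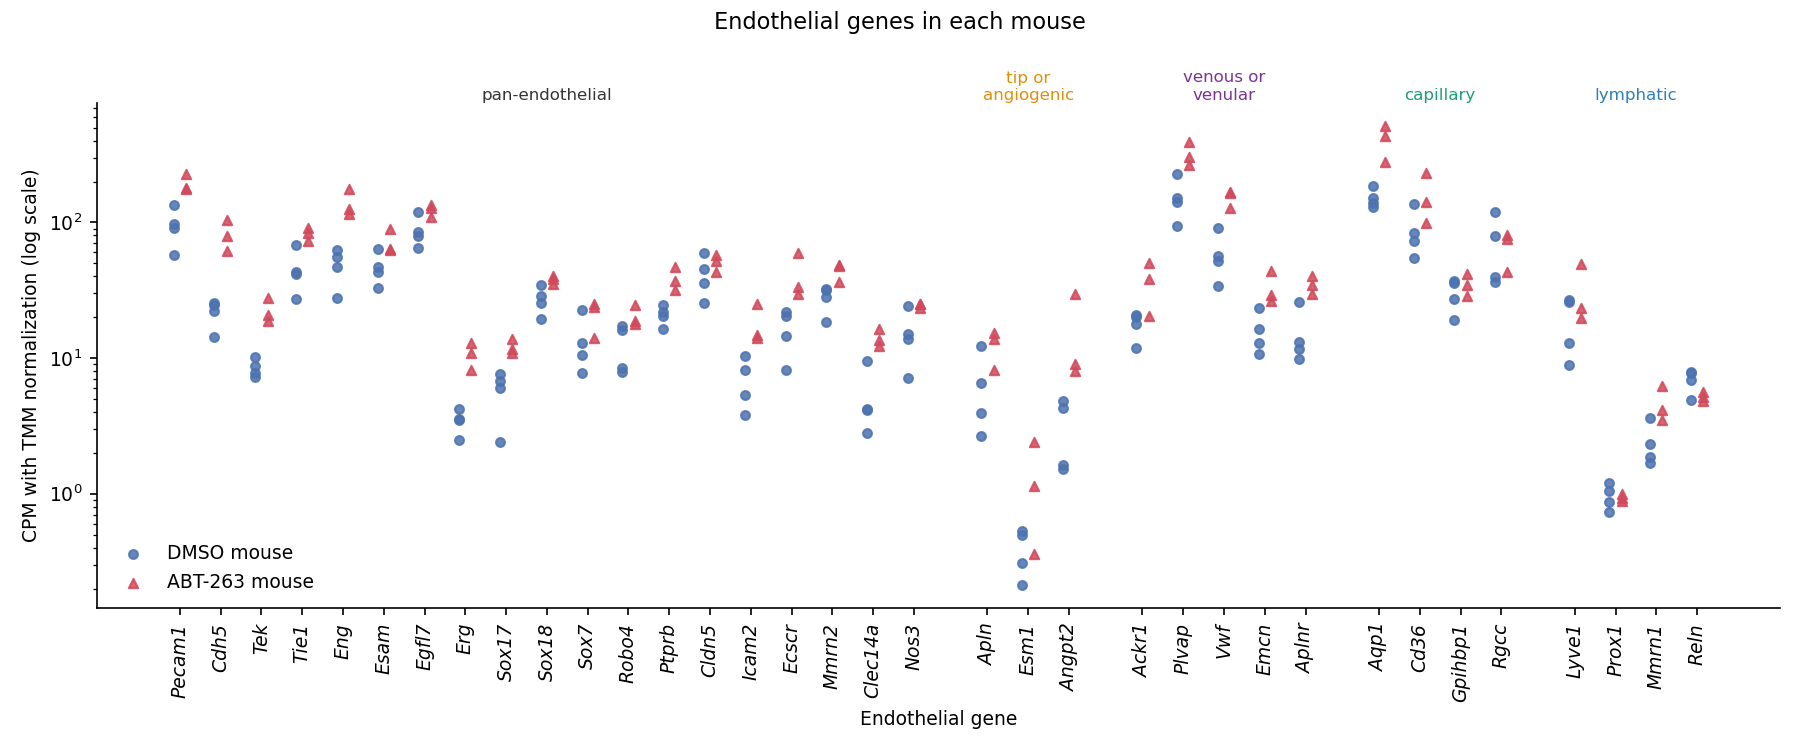
Level of each endothelial gene tested in every mouse, in CPM on a log axis, grouped by vessel type. Circles are the 4 DMSO mice and triangles the 3 ABT-263 mice. The triangles lie above all circles in 20 of 35 genes, among them Cdh5, Erg and Angpt2, against 18.7% of all genes tested. They are mixed with the circles in all 4 lymphatic genes, too few to set beside that share.

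The same DMSO mice were the lowest and the highest in most pan-endothelial genes. Mouse 481 was the lowest of the 4 in all 19 pan-endothelial genes and mouse 480 the highest in 17 of them. The summed pan-endothelial level was 748, 353, 537 and 553 CPM in the DMSO mice and 1200, 958 and 987 CPM in the ABT-263 mice, so the lowest ABT-263 mouse stood above the highest DMSO mouse. The calls depended on single mice. Without DMSO mouse 480, 23 of the endothelial genes were higher. Without mouse 481, 482 or 483 the count was 9, 6 and 8, and without ABT-263 mouse 476, 477 or 478 it was 8, 13 and 6. The share of all genes called higher moved too, to 11.6%, 7.95%, 4.8% and 5.58% without the DMSO mice in order and to 6.01%, 12.3% and 5.22% without the ABT-263 mice. Cdh5, Tek, Eng, Erg and Aqp1 were higher in all 7 of these fits.

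Among the pan-endothelial genes, 10 of 19 were higher, 0 were lower and all 19 had a log2 fold change above 0, with a median of 0.89. No pan-endothelial gene was lower at an unadjusted p-value under 0.05 or by the DESeq2 Wald test either. Cdh5 (chr8:104101625-104144511 on GRCm38) encodes VE-cadherin, the adherens junction protein of endothelium. Its level was 25.3, 14.3, 22.3 and 24.8 CPM in DMSO mice and 104, 62.0 and 79.5 CPM in ABT-263 mice. The lowest ABT-263 mouse exceeded the highest DMSO mouse by more than 2-fold. The change was 1.92 ± 0.240, or 3.77-fold, with an edgeR adjusted p-value of 0.00622. Pecam1 (chr11:106654217-106750628), which encodes the junction protein CD31, measured 135, 57.4, 90.8 and 97.8 CPM in DMSO mice and 227, 177 and 179 CPM after ABT-263. The groups did not overlap, and the change of 1.03 ± 0.262 had an edgeR adjusted p-value of 0.0280. It was between 0.0665 and 0.0788 when mouse 482, 483, 476 or 478 was left out.

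Tek (chr4:94739289-94874976) encodes TIE2, the angiopoietin receptor. It was at 10.1, 7.21, 8.67 and 7.72 CPM in DMSO mice and at 18.8, 20.6 and 27.7 CPM in ABT-263 mice. All treated mice were well above all controls, by 1.41 ± 0.192 (edgeR adjusted p-value 0.00628). Tie1 (chr4:118471191-118490061), the related receptor that pairs with TIE2, measured 67.7, 27.3, 43.2 and 41.9 CPM in DMSO mice and 91.3, 83.6 and 73.2 CPM after ABT-263. The highest DMSO mouse came close to the lowest ABT-263 mouse, and the change was 0.88 ± 0.270 with an edgeR adjusted p-value of 0.0487, which became 0.066 to 0.131 without any single mouse other than 480. Ptprb (chr10:116275523-116389535) encodes VE-PTP, the phosphatase that acts on TIE2 and VE-cadherin. Its levels were 20.3, 16.3, 24.8 and 21.9 CPM in DMSO mice and 37.1, 31.9 and 46.5 CPM in ABT-263 mice. The groups were apart, with a change of 0.89 ± 0.184 (edgeR adjusted p-value 0.0152, and 0.0557 without mouse 478).

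Eng (chr2:32646595-32682669) encodes endoglin, a coreceptor for ligands of the TGF-β family. Macrophages also make Eng. Its level was 62.8, 27.7, 46.8 and 56.0 CPM in DMSO mice and 176, 116 and 126 CPM after ABT-263. The groups did not overlap, and the change was 1.53 ± 0.279 with an edgeR adjusted p-value of 0.0111. Erg (chr16:95359169-95586593), the ETS factor that keeps endothelial identity, measured 4.21, 2.49, 3.54 and 3.49 CPM in DMSO mice and 13.0, 8.12 and 10.9 CPM after ABT-263. All treated mice were again higher, by 1.63 ± 0.247 (edgeR adjusted p-value 0.00726). For Cdh5, Tek, Erg and Eng the exact permutation test over mice, two-sided, gave p = 0.0286, the smallest value that 4 mice against 3 allow. The same exact permutation test gave p = 0.0571 for Pecam1 and Tie1.

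Icam2 (chr11:106377656-106388075), an adhesion molecule of resting endothelium, was at 10.4, 3.83, 5.34 and 8.22 CPM in DMSO mice and at 25.1, 14.0 and 14.7 CPM in ABT-263 mice. Clec14a (chr12:58264720-58269290), a lectin-domain receptor of endothelium that binds multimerin-2, was at 9.49, 2.82, 4.21 and 4.15 CPM and at 12.2, 13.6 and 16.3 CPM. In both genes every ABT-263 mouse was above every DMSO mouse, with mouse 480 the nearest control. The changes were 1.36 ± 0.364 for Icam2 (edgeR adjusted p-value 0.0322) and 1.44 ± 0.383 for Clec14a (0.0318). Ecscr, an endothelial surface protein, was higher by 1.32 ± 0.370 (edgeR adjusted p-value 0.0375). These 3 calls were lost without mouse 481, 482, 483, 476 or 478, and that of Clec14a also without mouse 477, at edgeR adjusted p-values of 0.0502 to 0.117.

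The other 9 pan-endothelial genes did not pass the threshold. Their log2 fold changes ran from 0.30 for Cldn5 to 1.08 for Sox17. The SoxF factors Sox7, Sox17 and Sox18 measured 0.64, 1.08 and 0.48 (edgeR adjusted p-values 0.231, 0.0564 and 0.0959). Mmrn2, the extracellular multimerin-2, stood at 0.67 (0.0508) with every ABT-263 mouse above every DMSO mouse. The guidance receptor Robo4, the junction gene Esam, the secreted Egfl7 and the nitric oxide synthase Nos3 lay between 0.51 and 0.71, with edgeR adjusted p-values of 0.0845 to 0.155. The exons of Egfl7 share 9.41% of their bases with genes on the same strand, so its reads there are ambiguous. Cldn5, the tight junction claudin of endothelium, was at 59.0, 25.5, 45.4 and 35.7 CPM in DMSO mice and at 51.8, 57.4 and 43.4 CPM after ABT-263. These ranges overlapped, with a change of 0.30 ± 0.264 (edgeR adjusted p-value 0.437). Without mouse 480, Esam, Egfl7, Sox17, Sox18, Sox7 and Nos3 passed the threshold, at edgeR adjusted p-values of 0.0225 to 0.0499. Sox17 also passed without mouse 481 (0.0333) and Mmrn2 without mouse 477 (0.0429).

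**Figure D2:**
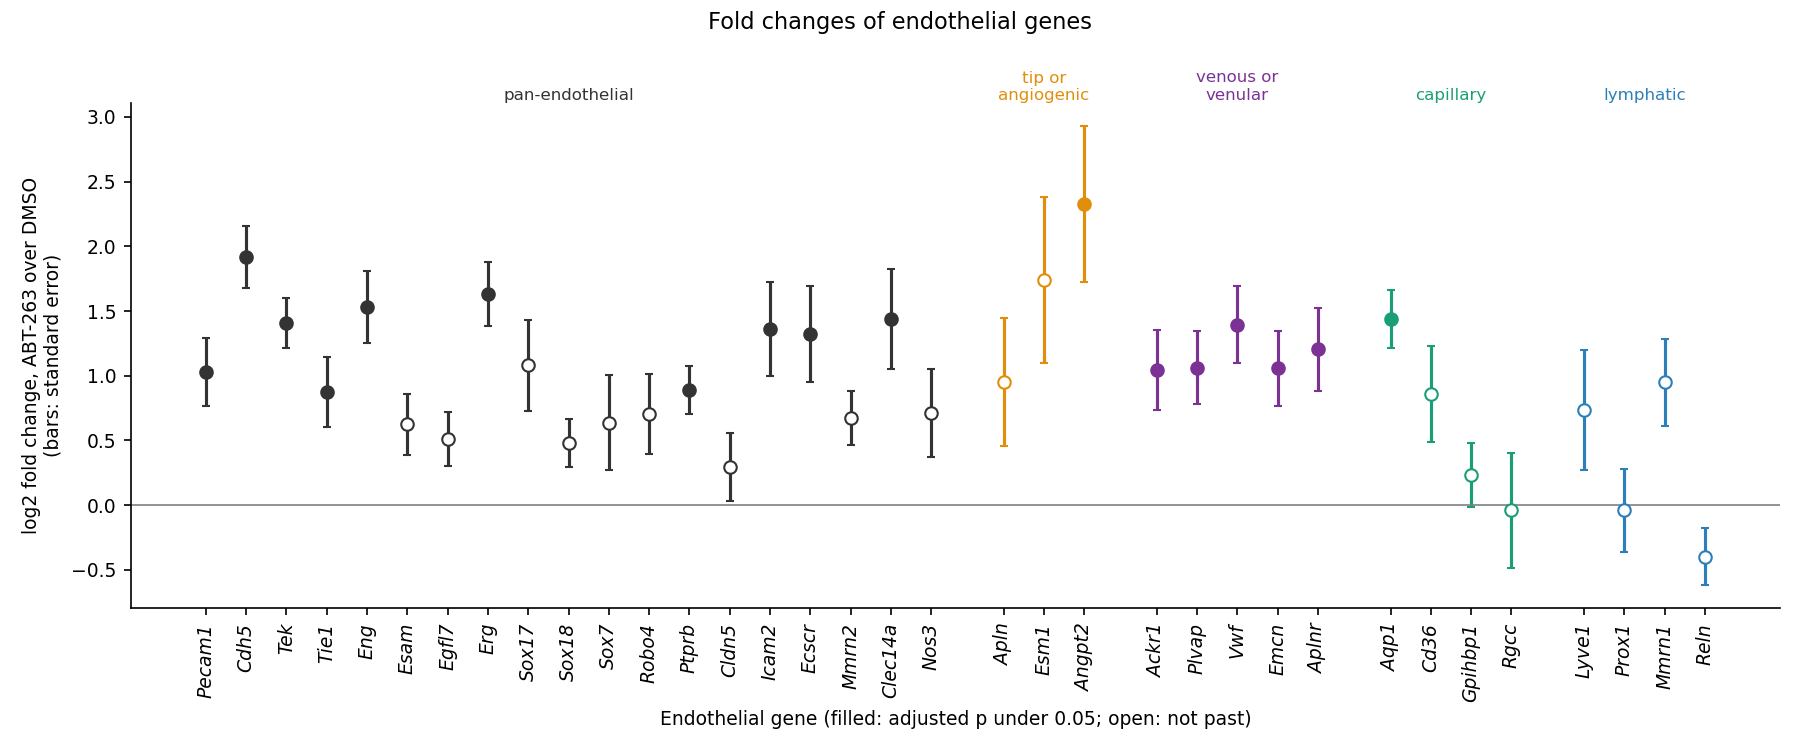
Log2 fold change of each endothelial gene tested, ABT-263 over DMSO, from edgeR, with bars for the standard error and filled points for an adjusted p-value under 0.05. The 5 venous genes are all filled between 1.04 and 1.40, Angpt2 is the highest at 2.33 and Reln the lowest at -0.40.

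The unequal changes within the pan-endothelial genes could be read as ratios inside each mouse, which do not depend on the scaling between libraries. The pairs were picked after the values were seen and were not tested. The log2 ratio of Cdh5 to Cldn5, the adherens against the tight junction gene, was -1.22 to -0.526 in DMSO mice and 0.111 to 1.01 in ABT-263 mice. Cdh5 was thus the lower of the pair in CPM in every control mouse and the higher in every treated mouse. The log2 ratio of Erg to Sox18, 2 endothelial transcription factors, was -3.04 to -2.85 in DMSO mice and -2.30 to -1.55 in ABT-263 mice, again without overlap. The log2 ratio of Tek to Tie1 overlapped between the groups, at -2.74 to -1.92 and -2.28 to -1.40.

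The pan-endothelial genes that changed most were often those with less GC in their transcripts. Spearman's correlation of the log2 fold change with the GC content of the transcript was -0.563 over the 19 pan-endothelial genes, -0.237 over the 35 endothelial genes and -0.0629 over 17942 genes tested. These are correlations across genes of the same 7 libraries and are given as a description. Cldn5 (60.5% GC), Sox18 (60.9%) and Egfl7 (57.1%) had small changes, while Tek (47.1%), Clec14a (44.6%) and Erg (50.8%) had large ones. Eng (57.4%) and the venous gene Plvap (60.6%) were higher with a GC content like that of Cldn5 or near it. With trends on GC content and transcript length removed from each library, 15 of the 35 genes were higher instead of 17, and 10.8% of all genes tested. Of these, 10 were pan-endothelial, with Sox18 gained (edgeR adjusted p-value 0.0368) and Clec14a lost (0.0524).

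**Figure D3:**
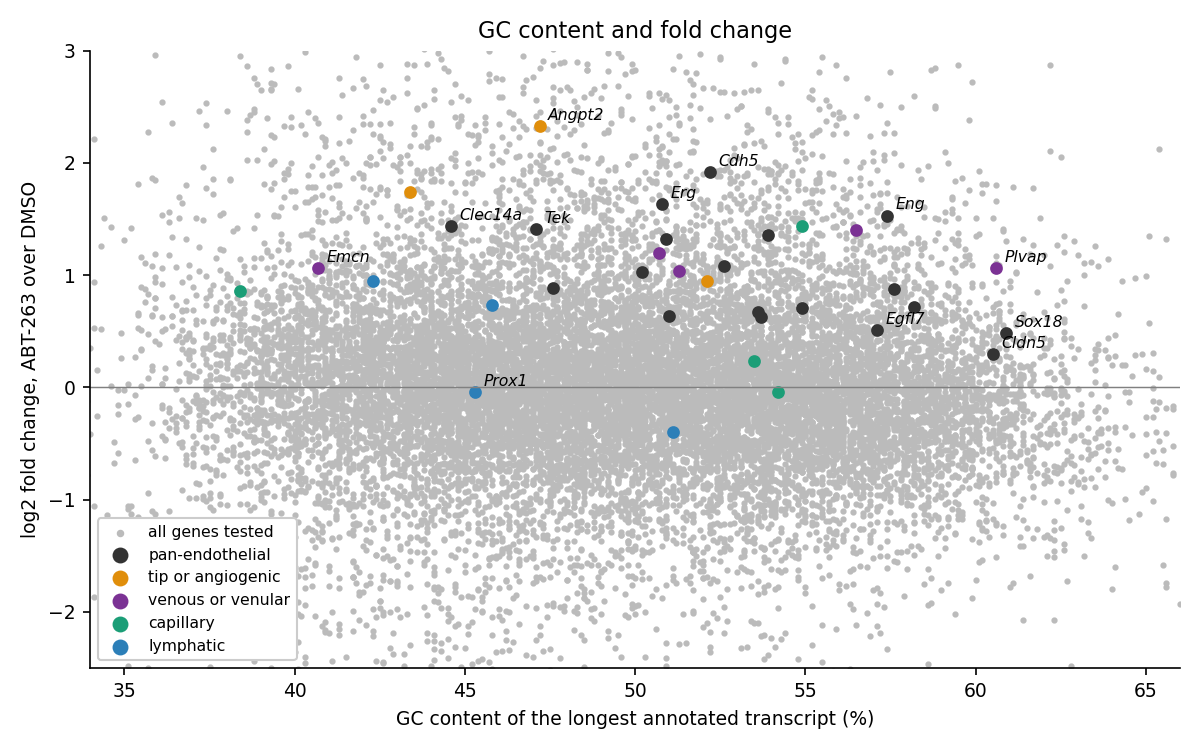
Log2 fold change from edgeR against the GC content of the longest annotated transcript, with grey points for all genes tested and coloured points for the endothelial genes; genes beyond the axis limits are not drawn. Cldn5 and Sox18 lie at the right with small changes, and Clec14a and Tek at the left with changes of 1.44 and 1.41.

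The 3 tip or angiogenic genes had log2 fold changes of 0.95, 1.74 and 2.33, and 1 of them, Angpt2, was higher. Angpt2 (chr8:18690263-18741562) encodes angiopoietin-2, the ligand that endothelium releases against angiopoietin-1. Its level was 4.79, 1.52, 1.64 and 4.31 CPM in DMSO mice and 29.5, 9.02 and 7.99 CPM in ABT-263 mice. All treated mice were above all controls, with mouse 476 far above the other two. The change was 2.33 ± 0.603, or 5.02-fold (edgeR adjusted p-value 0.0309, exact permutation p = 0.0286). Without mouse 481, 482, 483 or 476 the edgeR adjusted p-value was 0.0581 to 0.0849, at changes of 1.47 to 2.53, and with every counted gene tested it was 0.0797.

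Esm1 (chr13:113209659-113218098), the secreted proteoglycan endocan of tip cells, was at 0.532, 0.211, 0.308 and 0.493 CPM in DMSO mice and at 0.358, 2.39 and 1.14 CPM after ABT-263. This was the least abundant tip gene, with 5 to 13 reads per DMSO mouse and 10, 95 and 53 reads in the ABT-263 mice. Treated mouse 476 lay within the DMSO range, and the change of 1.74 ± 0.640 did not pass the threshold (edgeR adjusted p-value 0.0795, and 0.0371 without mouse 476). Apln (chrX:48025146-48034853), the ligand apelin of sprouting tips, measured 12.3, 3.96, 2.67 and 6.57 CPM in DMSO mice and 13.7, 15.2 and 8.14 CPM in ABT-263 mice. The groups overlapped, with 0.95 ± 0.494 (edgeR adjusted p-value 0.190, and 0.0349 without mouse 480). Mouse 476, the highest treated mouse for Angpt2, was thus the lowest for Esm1.

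All 5 venous or venular genes were higher, with log2 fold changes of 1.04 to 1.40. The exact permutation test over mice, two-sided, gave p = 0.0571 for each of the 5, so none was under 0.05 by that test. Vwf (chr6:125546774-125686679) encodes von Willebrand factor, which is stored with angiopoietin-2 in Weibel-Palade bodies. It measured 90.1, 33.8, 51.5 and 56.8 CPM in DMSO mice and 167, 127 and 165 CPM after ABT-263. The groups did not overlap, with a change of 1.40 ± 0.298 (edgeR adjusted p-value 0.0170). Plvap (chr8:71497765-71511752), the protein of fenestral and caveolar diaphragms, was at 226, 93.4, 142 and 151 CPM in DMSO mice and at 394, 303 and 264 CPM in ABT-263 mice. It was the highest of all endothelial genes per kilobase of exon, with a mean level of 77.1 CPM per kilobase in DMSO mice and 161 after ABT-263. Its change was 1.06 ± 0.285 (edgeR adjusted p-value 0.0322).

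Aplnr (chr2:85136225-85139923), the apelin receptor of venous endothelium, was at 25.7, 9.86, 13.1 and 11.7 CPM in DMSO mice and at 29.7, 40.4 and 34.4 CPM after ABT-263. Emcn (chr3:137341067-137432185), the sialomucin endomucin, was at 23.3, 10.7, 13.0 and 16.5 CPM and at 44.1, 28.9 and 26.3 CPM. In both genes the groups were apart and mouse 480 was the nearest control. The changes were 1.21 ± 0.320 for Aplnr (edgeR adjusted p-value 0.0318) and 1.06 ± 0.291 for Emcn (0.0349). Ackr1 (chr1:173331886-173333750), the atypical chemokine receptor of venules, was at 20, 11.8, 17.7 and 20.6 CPM in DMSO mice and at 50, 20.4 and 38.0 CPM in ABT-263 mice. Treated mouse 477 fell just under the highest control, so Ackr1 was the venous gene whose groups overlapped, with a change of 1.04 ± 0.311 (edgeR adjusted p-value 0.0441). Of its exon bases, 25.7% are shared with Cadm3 on the same strand.

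The venous calls rested on the full set of mice. The number of venous genes called higher was 4, 1, 0 and 1 without DMSO mice 480, 481, 482 and 483, and 1, 2 and 0 without ABT-263 mice 476, 477 and 478. Vwf was past the threshold in all but 2 of these fits, with edgeR adjusted p-values of 0.0539 and 0.0563 without mice 482 and 478. Plvap, Emcn and Aplnr were lost without any single mouse other than 480 (0.0506 to 0.104), and Ackr1 without any other than 477 (0.0616 to 0.137). With trends on GC content and length removed, 3 of the 5 were higher, and Emcn (0.0806) and Ackr1 (0.0505) were not.

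Of the 4 capillary genes 1 was higher and 0 were lower, where 12.4% of all genes tested were higher and 11.7% lower. Aqp1 (chr6:55336432-55348555), the water channel aquaporin-1, was at 184, 130, 151 and 139 CPM in DMSO mice and at 433, 280 and 514 CPM in ABT-263 mice. Every treated mouse was above every control, with 1.44 ± 0.226 (edgeR adjusted p-value 0.00767, exact permutation p = 0.0286). The fatty acid transporter Cd36 stood at 0.86 ± 0.369 (edgeR adjusted p-value 0.123) and the lipase anchor Gpihbp1 at 0.23 ± 0.244 (0.512). Rgcc, a regulator of the cell cycle, ranged from 36.2 to 119 CPM in DMSO mice and from 42.9 to 81.2 CPM after ABT-263, with -0.04 ± 0.445 (0.958). Groups overlapped in these last 3 genes. Cd36 is also made by macrophages, adipocytes and muscle, and Aqp1 by red cells.

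Of the 4 lymphatic genes tested, 0 were higher and 0 lower, which for 4 genes is near the shares over all genes tested (12.4% and 11.7%). Their median log2 fold change was 0.35. At an unadjusted p-value under 0.05, 1 was higher, and the DESeq2 Wald test called 1 higher, in both cases Mmrn1. Lyve1 (chr7:110850607-110863239), the hyaluronan receptor of lymphatic capillaries that some macrophages also make, was at 12.8, 8.93, 25.7 and 26.6 CPM in DMSO mice and at 49.7, 19.6 and 23.4 CPM in ABT-263 mice. Apart from mouse 476 the treated mice lay within the DMSO range, with 0.74 ± 0.464 (edgeR adjusted p-value 0.273). Prox1 (chr1:190118035-190170714), the transcription factor that sets lymphatic identity, was at 1.19, 1.05, 0.873 and 0.739 CPM and at 1.00, 0.933 and 0.881 CPM. All 3 treated mice were inside the DMSO range, with -0.04 ± 0.323 (edgeR adjusted p-value 0.939), on 17 to 41 reads per library. Prox1 was also the lowest of the tested endothelial genes per kilobase of exon, at 0.115 CPM per kilobase in DMSO mice.

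Mmrn1 (chr6:60924976-60989378), multimerin-1 of lymphatic endothelium and platelets, measured 1.88, 2.32, 1.69 and 3.62 CPM in DMSO mice and 3.50, 4.11 and 6.17 CPM in ABT-263 mice. Only the highest control reached into the treated range, and the change was 0.95 ± 0.335 (edgeR adjusted p-value 0.0712, 0.0495 without mouse 483 and 0.0343 by the DESeq2 Wald test). Reln (chr5:21884454-22344702), the secreted glycoprotein reelin, was at 6.92, 7.88, 4.88 and 7.76 CPM and at 5.15, 4.81 and 5.63 CPM. The ranges overlapped at the low end, with -0.40 ± 0.220 (edgeR adjusted p-value 0.210). Ccl21a (chr4:42772860-42773993), the lymphatic chemokine that guides dendritic cells, had 0 reads in all 7 libraries, as did all 6 annotated copies of the Ccl21 genes. The authors counted only uniquely aligned reads, and how alike the copies are in sequence was not examined. These counts therefore cannot show whether the transcript was absent. If its reads could be aligned uniquely, a count of 0 would allow up to 0.0689 to 0.147 CPM (3 reads, counting error only).

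The lymphatic genes were next set against the blood endothelial genes inside each mouse. The summed lymphatic level was 20.2 to 38.7 CPM in DMSO mice and 29.4 to 59.3 CPM after ABT-263. Lyve1, which some macrophages also make, was its largest part in every mouse, from 8.93 of 20.2 CPM in mouse 481 to 49.7 of 59.3 CPM in mouse 476. The log2 ratio of the lymphatic sum to the summed pan-endothelial level was -5.03, -4.13, -4.02 and -3.84 in DMSO mice and -4.34, -5.03 and -4.77 in ABT-263 mice, so the groups overlapped. For Prox1 over Pecam1 alone, a pair picked after the values were seen, the log2 ratio was -7.05 to -5.77 in DMSO mice and -7.83 to -7.57 in ABT-263 mice, all below the controls. For Mmrn1 over Pecam1 it overlapped, at -6.17 to -4.63 and -6.02 to -4.86. The venous sum stood higher against the pan-endothelial sum in every treated mouse, at -0.904 to -0.813 compared with -1.18 to -0.957 in controls. Most of that sum was Plvap and Vwf, at 226 and 90.1 of 385 CPM in control 480. In treated mouse 478 they were 264 and 165 of 527 CPM, so the ratio does not stand for the venous genes as a group. The log2 ratios of the tip and capillary sums to the pan-endothelial sum overlapped. No test was made of these ratios or of a difference between vessel types.

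**Figure D4:**
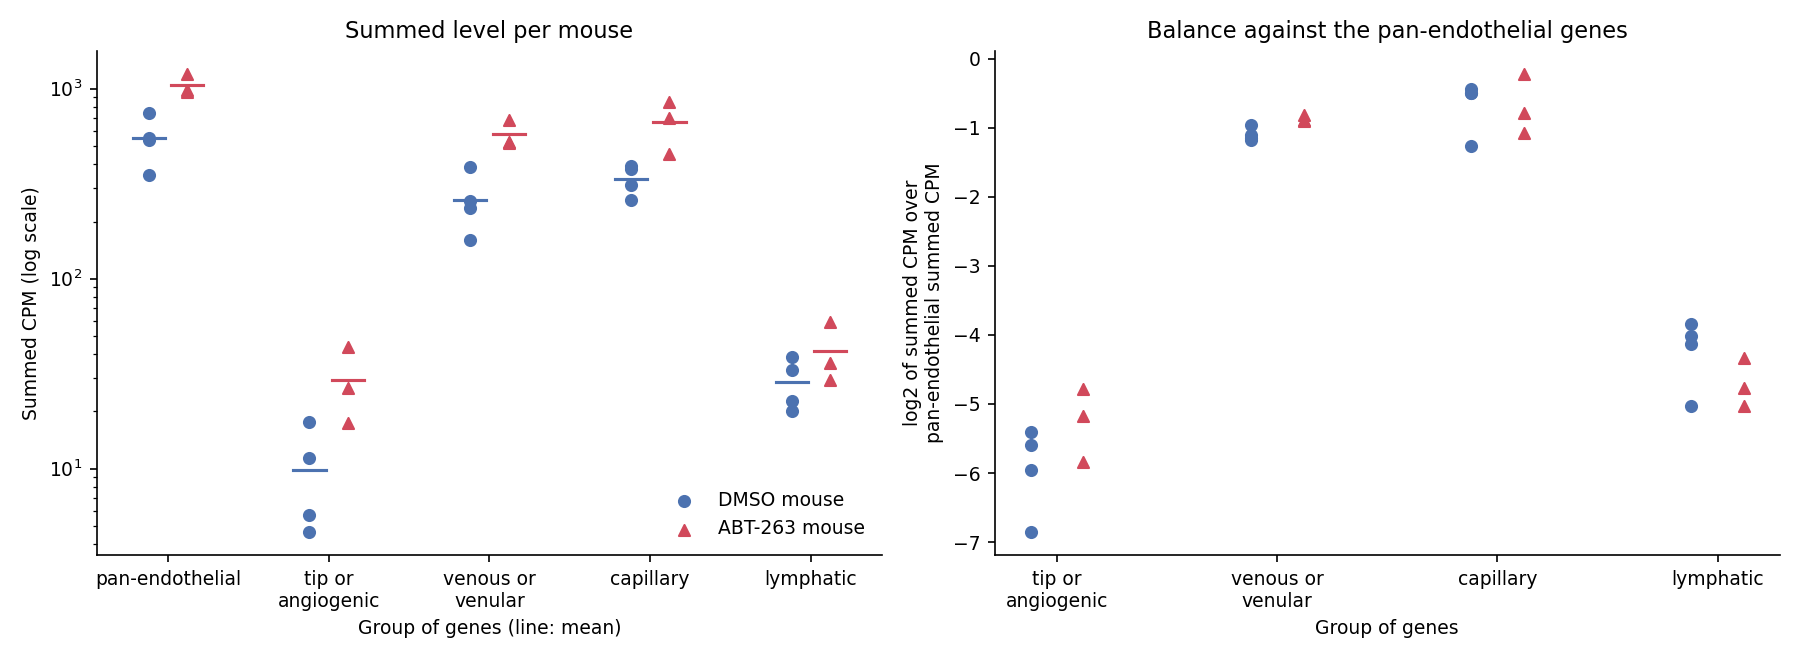
Left, summed CPM of each vessel group in every mouse on a log axis with lines for the mean; right, log2 of that sum over the pan-endothelial sum in the same mouse. Circles are DMSO mice and triangles ABT-263 mice. The venous triangles lie above the venous circles on both sides, and the lymphatic groups overlap on both. Most of the venous sum is Plvap and Vwf, and the largest part of the lymphatic sum is Lyve1.

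Further genes of the vessel wall and its pathways were read from 7 lists of 78 genes that hold none of the genes above, 77 of which were tested. After ABT-263 30 (39%) were higher and 2 lower, where 12.4% of all genes tested were higher and 11.7% lower. Their median log2 fold change was 0.82. In the lists with 0 lower genes, 0 were lower at an unadjusted p-value under 0.05 or by DESeq2. Of 28 other pan-endothelial genes 14 were higher and 0 lower, with a median of 0.89. The sphingosine-1-phosphate receptor S1pr1, which stabilizes junctions, was at 14.4, 9.02, 13.7 and 12.2 CPM in DMSO mice and at 48.5, 28.8 and 35.7 CPM after ABT-263, a change of 1.61 ± 0.223 (edgeR adjusted p-value 0.00628). Shank3 (1.28, 0.00806) and the transcription cofactor Lmo2 (1.19, 0.00869) followed by p-value. All treated mice were above all controls in these 3 genes, and each was higher whichever mouse was left out. Whole skin does not show whether endothelium or blood cells made the transcripts of this list, and this was not tested. The count for the list was 9, 6 and 9 without DMSO mouse 481, 482 or 483, 7 and 8 without ABT-263 mouse 476 or 478, and 14 or 15 without either of the other mice.

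Of 10 arterial genes 3 were higher and 0 lower, with a median of 0.71. They were the elastic fibre gene Fbln5 (1.32, edgeR adjusted p-value 0.00628), the BMP receptor Acvrl1 (1.28, 0.0137) and the connexin Gja4 (0.90, 0.0342, and up to 0.0909 without any single mouse other than 480). Of 8 other venous genes 4 were higher and 0 lower, with a median of 1.54. The endothelial adhesion molecules for leukocytes led them. Sele, E-selectin, was at 0.573, 0.253, 0.77 and 0.657 CPM in DMSO mice and at 15.3, 2.02 and 9.52 CPM in ABT-263 mice, a change of 3.99 ± 0.679 (edgeR adjusted p-value 0.00977). Selp, P-selectin, was at 3.93, 3.79, 4.72 and 6.70 CPM and at 110, 11.7 and 52.4 CPM, a change of 3.60 ± 0.660 (0.0124). Vcam1 was higher by 2.66 ± 0.505 (0.0131). All 3 had mouse 476 highest and mouse 477 lowest of the treated mice, without overlap with controls, and stayed past the threshold whichever mouse was left out. They are induced by inflammatory cytokines as well as being venular. The venous identity genes Nr2f2 and Ephb4 stood near 0, at -0.06 and 0.16 (edgeR adjusted p-values 0.812 and 0.351). In both the groups overlapped.

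Of 10 other tip or angiogenic genes tested 5 were higher and 0 lower, with a median of 1.18. The basement membrane gene Nid2 (2.23, edgeR adjusted p-value 0.00713), the peptide hormone gene Adm (2.34, 0.0107) and Angptl4 (2.62, 0.0109) led, all without overlap between groups and in every fit that left out a mouse. Of 10 other lymphatic genes 1 (10%) was higher and 1 lower, with a median of -0.02. These counts were near the shares over all genes tested, 12.4% higher and 11.7% lower. The integrin Itga9, needed for lymphatic valves, was higher by 0.67 ± 0.194 (edgeR adjusted p-value 0.0404), which was lost without any single mouse other than 477 (up to 0.125). The transcription factor Maf fell by 0.70 on the log2 scale (0.0289, up to 0.0862 without mouse 482, 483, 477 or 478).

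In the angiopoietin and apelin pathway 3 of 8 genes tested were higher and 1 lower, with a median of 0.58. Foxo1, the factor that TIE2 signaling keeps out of the nucleus, was at 79.7, 83.1, 72.8 and 77.6 CPM in DMSO mice and at 45.6, 40.1 and 39.8 CPM after ABT-263. Every treated mouse was below every control, with a change of -0.90 ± 0.115 (edgeR adjusted p-value 0.00622), also with any mouse left out. Foxo1 is made by many cell types of skin and muscle. Svep1, a matrix protein that binds TIE1, was higher by 1.53 ± 0.242 (edgeR adjusted p-value 0.00800). The phosphatase Ptpn11 was higher by 0.59 (0.0154, and up to 0.0535 without mouse 482 or 478), and Angptl1 by 1.90 (0.0253, and up to 0.0907 without mouse 481, 482, 483 or 478). Angpt1, the ligand of mural cells, stood at 0.56 (0.192). Of 6 genes linked to shear flow, named the shear response list here, 1 (16.7%) was higher and 0 lower, where 12.4% of all genes tested were higher. The higher gene was Thbd, the anticoagulant thrombomodulin, by 1.33 ± 0.190 (edgeR adjusted p-value 0.00676).

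**Figure D5:**
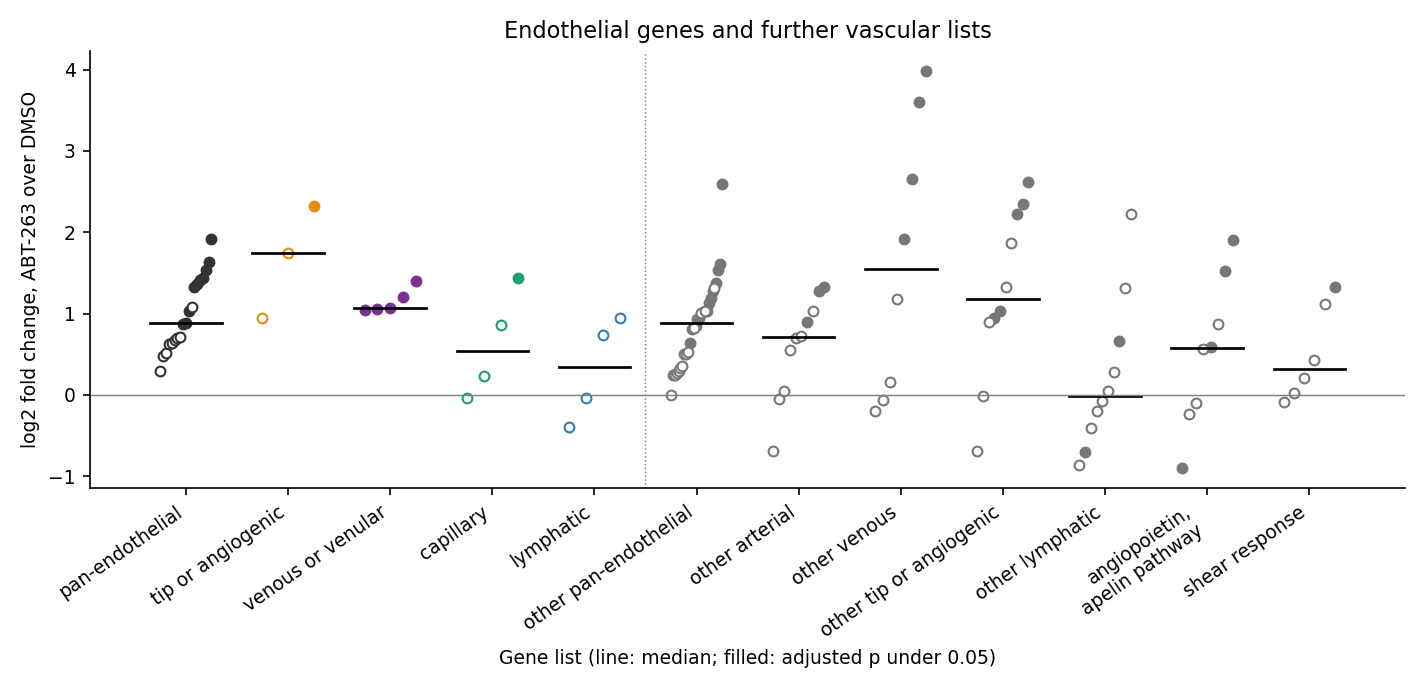
Log2 fold changes of the endothelial genes by vessel type (left of the dotted line) and of 7 further vascular lists (right), 1 point per gene, filled for an edgeR adjusted p-value under 0.05, with lines at the medians. The other lymphatic list has the lowest median, -0.02, followed by the shear response at 0.32 and the lymphatic genes of the left side at 0.35. Genes of the other lymphatic list differed widely in level, and the cells that made them were not determined.

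Markers of other cells moved in the same libraries, where 12.4% of all genes tested were higher and 11.7% lower. Of the macrophage markers 8 of 11 were higher, with a summed level of 409 to 1150 CPM across DMSO mice and 1400 to 4510 CPM across ABT-263 mice. Most of that sum was Lyz2, which was higher, and C1qa and C1qb, which did not pass (edgeR adjusted p-values 0.28 and 0.0597). Neutrophil markers were higher in 3 of 5 (99.8 to 1820 and 5100 to 8320 CPM) and fibroblast markers in 3 of 8 (3940 to 5540 and 6260 to 8980 CPM). Most of the neutrophil sum was S100a8 and S100a9, and S100a9 did not pass the threshold (edgeR adjusted p-value 0.0772). Retnlg, which passed, was at 232 CPM in treated mouse 476 but at 2.09 and 3.03 CPM in mice 477 and 478. The fibroblast sum was mostly Col1a1, Col1a2 and Dcn. Col1a2 passed (edgeR adjusted p-value 0.041), while Col1a1 and Dcn did not (0.196 and 0.191). Of the pericyte and smooth muscle markers 0 of 10 passed in either direction in edgeR or DESeq2, 2 were higher and 1 lower at an unadjusted p-value under 0.05, and the summed levels overlapped (3880 to 7170 and 3750 to 6700 CPM). Most of that sum was Des, which skeletal muscle also makes (3440 to 6630 and 3250 to 6160 CPM), and the other 9 markers summed to 422 to 558 CPM in DMSO mice and 501 to 681 CPM in ABT-263 mice, also with overlap. Platelet markers, from cells that also make Vwf, Pecam1 and Mmrn1, passed in 0 of 5 (34.6 to 85.2 and 59.6 to 81.7 CPM), and erythroid markers in 0 of 5 (158 to 276 and 135 to 1750 CPM). ABT-263 mouse 476, the highest treated mouse in 21 of the 35 endothelial genes, stood apart from mice 477 and 478 in the summed erythroid level (1750 against 164 and 135 CPM), the macrophage level (4510 against 1400 and 1980 CPM) and the T cell level (51 against 20 and 12.3 CPM). Without mouse 476, 8 endothelial genes were higher, as given above. Adipocyte markers passed in 0 of 8 (812 to 2680 and 961 to 3580 CPM) and T cell markers in 0 of 7 (12.4 to 24.6 and 12.3 to 51 CPM). At an unadjusted p-value under 0.05, 2 platelet, 1 erythroid, 2 adipocyte and 0 T cell markers were higher, and DESeq2 called 1 platelet, 1 adipocyte and 1 T cell marker higher and gave no adjusted p-value for the erythroid genes. Skeletal muscle markers were lower in 2 of 8 (33700 to 67700 and 25900 to 35400 CPM), keratinocyte markers higher in 1 and lower in 1 of 8 (23400 to 52700 and 18900 to 52900 CPM), and Schwann cell markers higher in 1 and lower in 2 of 6 (120 to 211 and 108 to 122 CPM). DMSO mouse 480, the highest control in 27 of the 35 endothelial genes, had the lowest skeletal muscle sum of the controls (33700 against 50200 to 67700 CPM). It had the highest keratinocyte sum (52700 against 23400 to 30200 CPM). The part of these cell types in the endothelial results was not tested.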

How the data were processed

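Dorsal skin of 4 DMSO and 3 ABT-263 mice was compared. Per the labels and methods, the authors aligned reads to mm10 with STAR 2.7.9a and deposited raw counts per Ensembl gene from featureCounts (Subread 1.6.2), for uniquely aligned proper pairs on the same strand. A second deposited table, of variance-stabilized values that the authors made with DESeq2 1.23.10, was not used. Symbols and coordinates came from GENCODE M21 on GRCm38, which holds 55190 of the 55450 identifiers while the authors name an Ensembl build. Promoter windows came from RefSeq on GRCm38.p6.

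Counts were tested in R 4.3.3 with edgeR 4.0.16 (TMM, filterByExpr, robust quasi-likelihood F test, two-sided, Benjamini-Hochberg over 17959 genes), and the script was tested on simulated data. The fit used all 7 mice without covariates. The labels name no batch and do not state litters or cages. Standard errors were the log2 fold change divided by the square root of F. The exact permutation test compared mean log2(CPM + 0.1) over the 35 ways to pick 3 of 7 mice. As alternatives the Wald test of DESeq2 1.42.0, its size factors in edgeR, 2 other filters on low counts, removal of trends on GC content and length (mgcv 1.9.3), thinning to 20344364 counts and leaving out each mouse were run. For the 7 further vascular lists these alternatives were added after seeing the data.

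Members, lists and tests were chosen with earlier results of these data known. Values are given for all endothelial genes of the tip, venous and lymphatic groups and for the 12 with the smallest p-value, and up to 3 genes in each direction, by p-value, from the further lists. The ratios, the promoters, Nr2f2, Ephb4 and Angpt1, and the mouse values of Tie1 and Cldn5, were chosen after their values were seen. From each marker list up to 3 genes by level could be named. They are given for macrophages, neutrophils and fibroblasts, with Des for pericytes and smooth muscle.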

Additional observations from a re-analysis of the deposited data

How the results depend on the processing

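No endothelial gene was lower under any alternative. The number of endothelial genes called higher was 15 to 21 under the 6 alternatives that kept all mice, where 6.11% to 13.9% of all genes tested were higher, and 6 to 23 with 1 mouse left out. With 1 mouse left out, 4 to 16 pan-endothelial, 0 to 2 tip, 0 to 4 venous, 1 capillary and 0 to 1 lymphatic genes were higher. The DESeq2 Wald test called 2 tip genes and 1 lymphatic gene higher, testing every counted gene left 0 tip genes, and removing the GC content and length trends left 3 venous genes. Of the further lists, DESeq2 called 5 arterial, 3 other lymphatic and 2 shear response genes higher, and with the trends removed 0 other lymphatic genes were higher and 2 lower. With 1 mouse left out, 6 to 15 other pan-endothelial, 2 to 4 arterial, 4 to 5 other venous, 4 to 5 other tip, 0 to 1 other lymphatic, 1 to 3 angiopoietin pathway and 1 to 2 shear response genes were higher, and 0 to 1 other lymphatic genes lower. The cause was not tested.

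Of 454 single-gene results under an alternative, 361 kept direction and call, 66 lost the call, 21 gained it and 6 changed sign. The sign changes were in Rgcc (0.366, 0.0329 and 0.23 without mice 482, 483 and 477, range -0.251 to 0.366) and Prox1 (0.0739, 0.00026 and 0.00939 without mice 480, 481 and 478, range -0.153 to 0.0739), both near 0. No paired analysis was possible because the 2 groups share no replicate numbers. Depth limits Esm1 (5 to 95 reads per library) and Prox1 (17 to 41). Whole skin does not show which cells made a transcript, and p-values measure only the spread between these mice.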

Other observations

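In the DMSO mice, 27 of the 35 endothelial genes tested were highest in mouse 480 and 29 were lowest in mouse 481. In the ABT-263 mice, 21 were highest in mouse 476 and 18 lowest in mouse 477. The log2 ratios of the receptor and ligand pairs overlapped between the groups, at -2.40 to -0.841 in DMSO mice and -1.79 to 0.65 in ABT-263 mice for Angpt2 over Tek and at 0.833 to 2.29 and 1.12 to 2.08 for Aplnr over Apln. Angpt2 over Angpt1, the ligands that compete for TIE2, was at -1.80 to 0.33 and 0.156 to 1.68. Vwf over Pecam1 was at -0.818 to -0.583 in DMSO mice and -0.479 to -0.117 in ABT-263 mice, without overlap. These pairs were chosen after the values were seen and were not tested. None of the 35 genes had a DMSO mouse apart from the other 3 by Dixon's test, where chance alone would give 1.75.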
